A study of Homo sapiens with 12 samples.

Results

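The genes described here are 10 components of the canonical Wnt pathway: the co-receptors LRP5 and LRP6, the scaffolds DVL1, DVL2 and DVL3, the destruction complex proteins AXIN1, AXIN2 and APC, beta-catenin (CTNNB1) and the transcription factor TCF7L2. Their probes were found by gene symbol, and every probe that the array annotation gives to them was taken, whatever it showed. The genes themselves, and the lists of further Wnt genes below, were chosen with earlier results of these data known. Counts over them describe these genes and are not a test of the pathway. Of the 10 genes, 7 were represented, by 9 of the 15329 probes analysed. LRP5 and CTNNB1 each had 2 probes. LRP6, DVL1 and APC had no probe among these and were not analysed here. The arrays came from HEK293T cells, a human embryonic kidney line that carries the SV40 large T antigen, transfected with 200 pmol of a biotinylated duplex of miR-199a-5p or of miR-424-3p and harvested after 24 hours. In each case RNA bound to the duplex was isolated on streptavidin beads (pull-down), and the other arrays of the same microRNA, labelled as having had no pull-down, served as input. The 4 groups held 3 arrays each, so that all 12 arrays came from transfected cells of the same line and no untreated cells enter a comparison. Input arrays measured bulk RNA, in which fewer cells of a type and less RNA per cell cannot be told apart. Pull-down arrays measured the RNA caught on the beads. After normalization, higher or lower in a pull-down is relative to the other probes and is not an amount of transcript in the cells.

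In canonical Wnt signalling a secreted Wnt protein brings a Frizzled receptor together with LRP5 or LRP6 at the cell surface. Dishevelled proteins (DVL) are then recruited and the destruction complex, built on Axin and APC and holding the kinases GSK3 and casein kinase 1, no longer marks beta-catenin for degradation. Beta-catenin accumulates, enters the nucleus and acts with TCF and LEF factors on target genes, among them AXIN2, which feeds back on the pathway. MicroRNAs act on such transcripts through Argonaute proteins, which they guide to partly complementary mRNAs, in many cases through bases 2 to 8 of the microRNA, the seed.

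The mature sequences of both microRNAs are shown because the arrays differ in which of them the cells were given. Each pull-down was compared with the input of the same microRNA, and no pull-down with a control duplex is among the arrays. They were taken from RefSeq on GRCh38.p14 and are written 5′ to 3′ with the seed in capitals. The duplexes transfected were synthetic, and their exact sequences were not used here.
miR-199a-5p: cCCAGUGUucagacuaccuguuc
miR-424-3p: cAAAACGUgaggcgcugcuau
The sequence of miR-199a-5p is encoded at 2 places, MIR199A1 at chr19:10817469-10817491 and MIR199A2 at chr1:172144592-172144614, and that of miR-424-3p by MIR424 at chrX:134546644-134546664, each on the minus strand. An mRNA that pairs with all 7 seed bases would hold ACACUGG for miR-199a-5p and ACGUUUU for miR-424-3p. The seeds carry the same base at 3 of 7 positions, and the longest run of bases common to the mature sequences is 3. No search for such sites in the Wnt transcripts was made here.

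Values are normalized log2 signals. At high signal a difference of 1 is a doubling, and at low signal the same change in RNA gives a smaller difference. Across all probes they ran from 7.56 to 15.59, with array medians between 9.15 and 9.21, and arrays of the same group correlated at r = 0.983 to 0.994 across probes. AXIN1 was the brightest of the Wnt probes, with 69.8% of all probes dimmer, followed by DVL3 (65.8%), DVL2 (62.7%), TCF7L2 (58.9%), the main LRP5 probe (56.5%) and AXIN2 (49.9%). Both CTNNB1 probes (32.3% and 28.3%) and the second LRP5 probe (10.3%) were dim, so their fold changes are the most likely to be understated. These are percentages of probes and not a ranking of transcript amounts, since probes differ in how brightly they report. Of 6 markers of the HEK293T line 5 were among the probes, and PAX2 was not represented. VIM and LIN28B were among the brightest (97.2% and 91.6% of probes dimmer). NEFM (62.7%) and KRT8 (45.2%) lay between, and KRT18 was dim (24.3%). Of 14 markers of fibroblasts, blood cells and hepatocytes, COL1A1 and ALB were represented, and both were dim (6.75% and 23.5% of probes dimmer).

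With miR-424-3p all 7 measured genes, and all 9 of their probes, were higher in the pull-down than in the input at an adjusted p under 0.05 in a one-sided limma test. Over all probes 26.3% were higher by the same criterion, and 28.8% lower. Counted with 1 probe per gene, 30.3% of 9647 genes were higher. Since the Wnt genes were chosen with earlier results known, their counts beside these shares are a description only. No Wnt probe was lower with miR-424-3p, with the adjustment or without it. With miR-199a-5p the same probes divided, with 3 higher, 3 lower and 3 without a call, against 25.6% higher and 25.9% lower over all probes. The median log2 fold change of the 9 probes was 0.61 with miR-424-3p (-0.02 over all probes) and 0.08 with miR-199a-5p (0.00 over all probes). The groups were also compared array by array. For all 9 probes the 3 miR-424-3p pull-down arrays lay above the 3 inputs, as they did for 30.1% of all probes, and above the 3 miR-199a-5p pull-down arrays, as for 28.6% of all probes. They lay above all 9 other arrays of the series for each of the 9 probes, and for 16.8% of all probes. In the miR-199a-5p comparison the pull-down arrays lay wholly above the inputs for 3 Wnt probes (28.2% of all probes) and wholly below for 3 (29.5%).

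**Figure D1:**
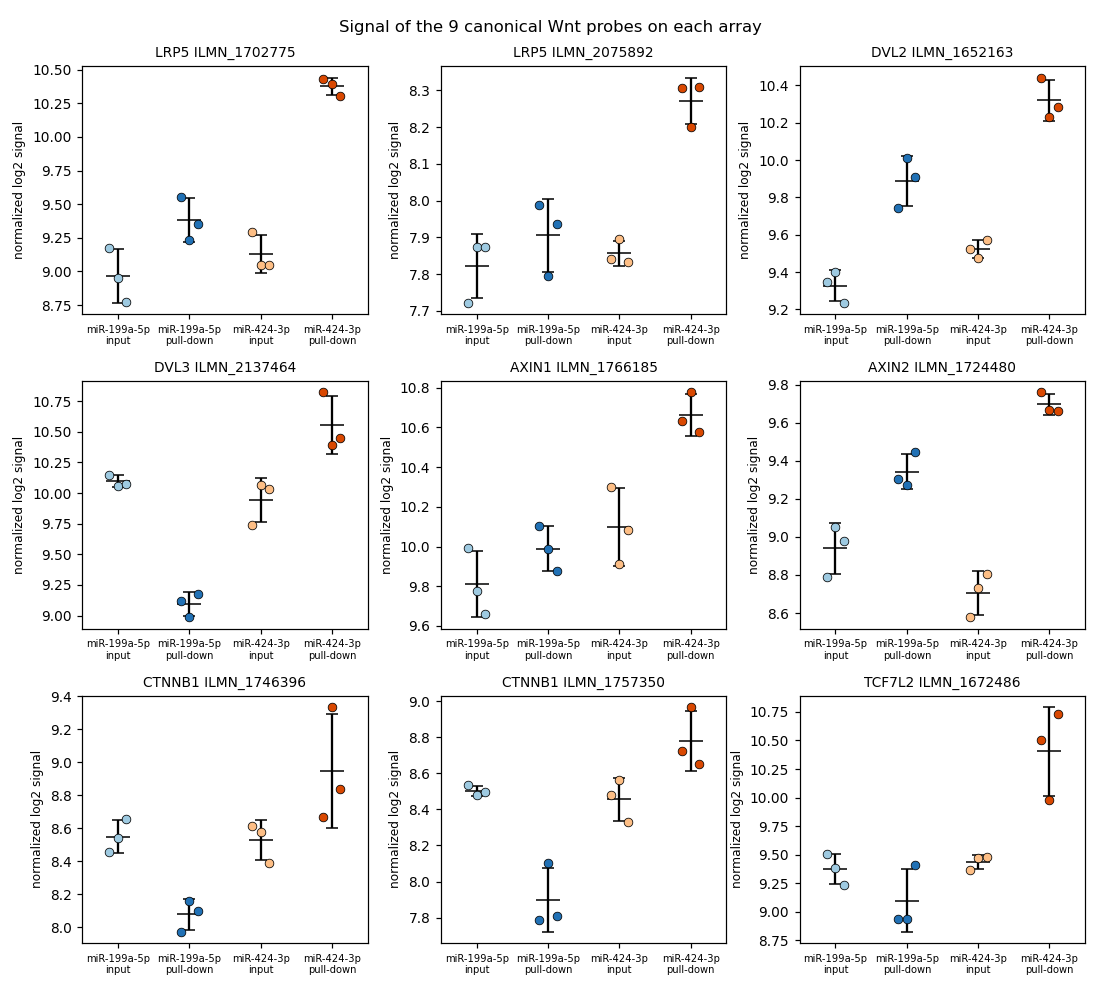
Normalized log2 signal (vertical axis, scaled separately for each probe) of the 9 Wnt probes on each of the 12 arrays. Points are arrays in the order of replicates 1 to 3, the horizontal mark is the mean and the bar 1 SD (n = 3 in each group). The miR-424-3p pull-down is the highest group in every panel, and for DVL3, both CTNNB1 probes and TCF7L2 the miR-199a-5p pull-down is the lowest.

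LRP5 is a membrane co-receptor that takes up the Wnt signal together with a Frizzled protein. Its brighter probe, ILMN_1702775, read 9.30, 9.04 and 9.05 in the miR-424-3p inputs and 10.43, 10.39 and 10.31 in the pull-downs. In the miR-199a-5p experiment it read 9.17, 8.95 and 8.78 in the inputs and 9.56, 9.23 and 9.35 in the pull-downs. Pull-down and input arrays did not overlap for either microRNA, but the lowest miR-199a-5p pull-down array lay only slightly above the highest input. With miR-424-3p the log2 fold change was 1.25 ± 0.12 (SE, 2.37-fold, adjusted p = 7.70e-07), higher than for 97.6% of all probes. With miR-199a-5p it was 0.41 ± 0.12 (1.33-fold, adjusted p = 0.00893). The second LRP5 probe, ILMN_2075892, was also higher with miR-424-3p, at a lower signal, going from 7.84, 7.90 and 7.83 in the miR-424-3p inputs to 8.31, 8.20 and 8.31 in the pull-downs. That was a log2 fold change of 0.42 ± 0.09 (adjusted p = 0.000876). Its miR-199a-5p arrays overlapped, at 7.72, 7.87 and 7.87 in the inputs and 7.99, 7.79 and 7.94 in the pull-downs, and no change was called (0.08 ± 0.09, adjusted p = 0.443).

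The Dishevelled proteins carry the signal from the receptors to the destruction complex, and the 2 measured members of the family were called in opposite directions with miR-199a-5p. DVL2 read 9.34, 9.40 and 9.24 in the miR-199a-5p inputs and 9.75, 10.01 and 9.91 in the pull-downs. With miR-424-3p it read 9.52, 9.48 and 9.57 in the inputs and 10.44, 10.23 and 10.28 in the pull-downs. All pull-down arrays of DVL2 therefore lay above the inputs of their own microRNA, with log2 fold changes of 0.56 ± 0.09 (1.48-fold, adjusted p = 0.000228) and 0.80 ± 0.09 (1.74-fold, adjusted p = 6.43e-06). DVL3 stood at 10.15, 10.06 and 10.07 in the miR-199a-5p inputs and at 9.12, 8.99 and 9.17 in the pull-downs. In the miR-424-3p arrays it stood at 9.74, 10.06 and 10.03 in the inputs and at 10.82, 10.39 and 10.45 in the pull-downs. The change of DVL3 thus went down with miR-199a-5p and up with miR-424-3p, without overlap in either. It fell by 1.00 ± 0.12 on the log2 scale with miR-199a-5p (2.00-fold lower, adjusted p = 9.51e-06), a value below which only 4.12% of all probes lay, and rose by 0.61 ± 0.12 with miR-424-3p (1.53-fold, adjusted p = 0.000628). The DVL2 and DVL3 changes were not tested against each other.

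AXIN1 and AXIN2 are the scaffolds on which the destruction complex is assembled. AXIN2 differs from AXIN1 in being a transcriptional target of the pathway itself. AXIN2 read 8.79, 9.05 and 8.98 in the miR-199a-5p inputs against 9.31, 9.27 and 9.45 in the pull-downs, and 8.58, 8.73 and 8.81 in the miR-424-3p inputs against 9.76, 9.67 and 9.66 in the pull-downs. Every pull-down array exceeded every input array of either microRNA. The log2 fold changes were 0.40 ± 0.10 with miR-199a-5p (1.32-fold, adjusted p = 0.00300) and 0.99 ± 0.10 with miR-424-3p (1.99-fold, adjusted p = 1.01e-06). AXIN1 read 10.30, 9.91 and 10.08 in the miR-424-3p inputs and 10.63, 10.78 and 10.58 in the pull-downs, an increase of 0.56 ± 0.12 (1.48-fold, adjusted p = 0.000917). Its miR-199a-5p inputs at 9.99, 9.78 and 9.66 overlapped the pull-downs at 10.10, 9.99 and 9.88, and the difference of 0.18 ± 0.12 was not called (adjusted p = 0.218). The 95% confidence interval of that value ran from -0.07 to 0.43, so that an enrichment as large as that of AXIN2 lies within it.

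Beta-catenin, the product of CTNNB1, is the protein that the destruction complex degrades and that acts in the nucleus when it is spared. Probe ILMN_1746396 read 8.46, 8.54 and 8.65 in the miR-199a-5p inputs and 7.97, 8.16 and 8.10 in the pull-downs. Probe ILMN_1757350 read 8.53, 8.48 and 8.50 in the inputs and 7.79, 8.10 and 7.81 in the pull-downs. On both probes all 3 pull-down arrays lay below the inputs, with falls of 0.47 ± 0.14 (1.39-fold lower, adjusted p = 0.0113) and 0.60 ± 0.11 (1.52-fold lower, adjusted p = 0.000376) on the log2 scale. In the miR-424-3p experiment the first probe went from 8.62, 8.58 and 8.39 in the inputs to 8.67, 9.34 and 8.84 in the pull-downs, and the second from 8.48, 8.56 and 8.33 to 8.72, 8.97 and 8.65. The arrays did not overlap, but the lowest pull-down array lay only slightly above the highest input on both probes, and pull-down replicate 2 was the highest. The increases were 0.42 ± 0.14 (1.34-fold, adjusted p = 0.0206) and 0.32 ± 0.11 (1.25-fold, adjusted p = 0.0231). They were smaller than that of the brightest probe of each other gene, but the second LRP5 probe, also dim, rose by 0.42. The CTNNB1 increases were lost when single arrays were left out. Without pull-down replicate 2 the values were 0.23 and 0.23 (adjusted p = 0.109 and 0.117), and without input replicate 3 they were 0.35 and 0.26 (adjusted p = 0.0855 and 0.09997). Their fall with miR-199a-5p was called whichever array was left out.

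TCF7L2 is a DNA-binding partner of beta-catenin. It read 9.36, 9.47 and 9.48 in the miR-424-3p inputs and 10.51, 9.98 and 10.74 in the pull-downs, where the arrays spread more (SD of 0.39, n = 3) than in any other group of Wnt values. The log2 fold change was 0.97 ± 0.17 (1.96-fold, adjusted p = 0.000226), above that of 95.0% of all probes. With miR-199a-5p TCF7L2 read 9.50, 9.38 and 9.24 in the inputs and 8.94, 8.94 and 9.41 in the pull-downs. Of the pull-down arrays 2 lay below all inputs and replicate 3 lay among them, and the value of -0.28 ± 0.17 was not called (adjusted p = 0.185, 95% confidence interval from -0.64 to 0.08). Without pull-down replicate 3 it was -0.44, a called fall (adjusted p = 0.0429).

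**Figure D2:**
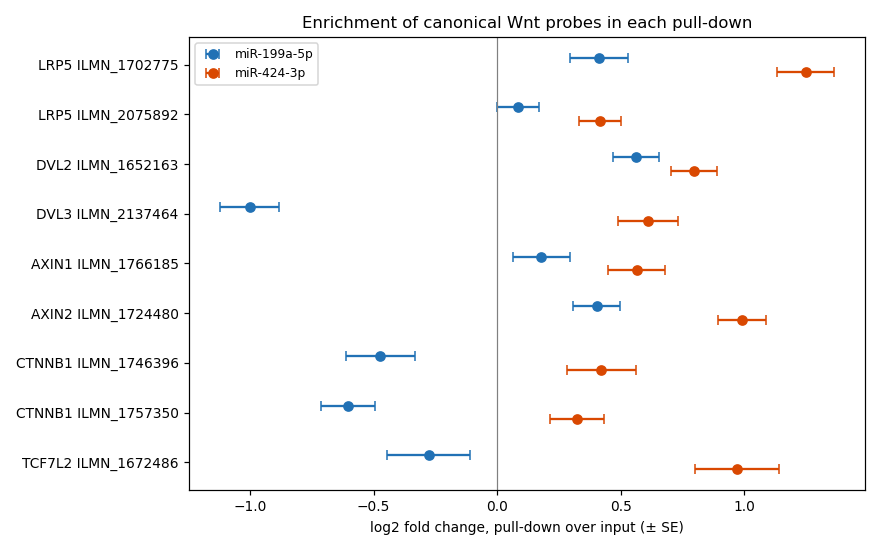
Log2 fold change of pull-down over input (horizontal axis, mean difference ± SE from the limma fit, 3 arrays against 3) for each of the 9 Wnt probes with miR-199a-5p (blue) and miR-424-3p (orange). All miR-424-3p values lie right of 0, from 0.32 for CTNNB1 to 1.25 for LRP5, whereas the miR-199a-5p values lie on both sides of 0, with DVL3 farthest left and DVL2 (0.56) farthest right.

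The difference between the enrichments was then tested for each probe in the same fit, as the log2 fold change with miR-199a-5p minus that with miR-424-3p. It was negative for all 9 probes. Of these 7 passed the test with the larger enrichment by miR-424-3p, as did 18.0% of all probes. None was called in favour of miR-199a-5p, by the adjusted or the unadjusted limma p, against 18.8% of all probes. DVL3 had the largest difference at -1.61 ± 0.17 (adjusted p = 7.90e-06), and only 0.933% of all probes lay below it. TCF7L2 followed at -1.25 ± 0.24 (adjusted p = 0.000969), then the CTNNB1 probes at -0.93 ± 0.16 and -0.89 ± 0.20 (adjusted p = 0.000359 and 0.00281), the main LRP5 probe at -0.83 ± 0.17 (adjusted p = 0.00127) and AXIN2 at -0.59 ± 0.14 (adjusted p = 0.00360). The second LRP5 probe, at -0.33 ± 0.12, passed the threshold narrowly (adjusted p = 0.0433) and kept its call when miR-199a-5p pull-down replicate 1 or 3, miR-199a-5p input replicate 1 or miR-424-3p pull-down replicate 2 was left out, but lost it without any of the other 8 arrays (values from -0.35 to -0.28, adjusted p from 0.0554 to 0.105). For AXIN1 the difference of -0.39 ± 0.16 was not called (adjusted p = 0.0826, 95% confidence interval from -0.74 to -0.03). Without miR-424-3p input replicate 1 it was -0.49 and called (adjusted p = 0.0294). For DVL2 the difference was -0.23 ± 0.13 (adjusted p = 0.190, interval from -0.52 to 0.05). DVL2 was thus higher in both pull-downs with no called difference, while LRP5 (main probe) and AXIN2 were higher in both and more so with miR-424-3p.

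By their calls in both pull-downs the 9 probes fell into 3 sets of 3. LRP5 by its main probe, DVL2 and AXIN2 were higher with both microRNAs, as were 11.7% of all probes. DVL3 and both CTNNB1 probes were higher with miR-424-3p and lower with miR-199a-5p, as were 2.76% of all probes. AXIN1, TCF7L2 and the second LRP5 probe were higher with miR-424-3p and had no call with miR-199a-5p, as had 11.9%. The sets do not follow the roles of the genes. DVL2, the other Dishevelled gene measured, fell in the first set, and TCF7L2, the partner of beta-catenin, in the third. The sets rest on a threshold and were not tested against each other, and the probes of LRP5 fell in different sets. TCF7L2 would join the second set with array weights or without miR-199a-5p pull-down replicate 3. AXIN1 would join the first with array weights.

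**Figure D3:**
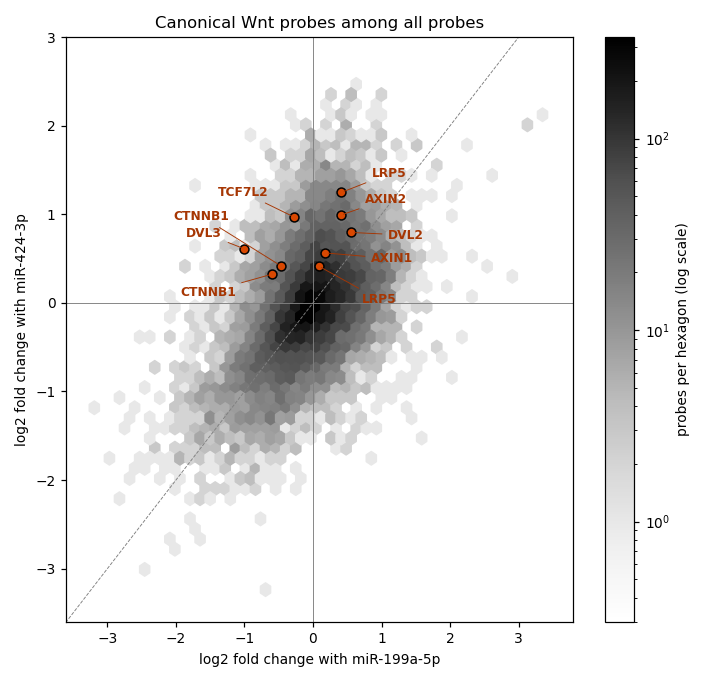
Log2 fold change with miR-199a-5p (horizontal axis) against that with miR-424-3p (vertical axis) for all 15329 probes, shaded by the number of probes per hexagon on a log scale, with the 9 Wnt probes as orange points. The dashed line marks equal changes. All 9 points lie above that line and above 0 on the vertical axis, and DVL3 and the 2 CTNNB1 points lie left of 0 with called falls on the horizontal axis.

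The inputs were compared to see whether the level of these transcripts differed in cells given one duplex or the other. None of the 9 probes was called in a two-sided limma test, in which 0.0196% of all probes (3 probes) were called. At an unadjusted p under 0.05 there were 2, AXIN1 with -0.29 ± 0.12 and AXIN2 with 0.23 ± 0.10 for miR-199a-5p minus miR-424-3p, with an unadjusted p of 0.0265 for AXIN1 and 0.0279 for AXIN2. The differences between inputs ran from -0.29 for AXIN1 to 0.23 for AXIN2. For DVL3, whose enrichments differed most, the inputs differed by 0.15 ± 0.12, and its miR-199a-5p pull-downs lay at 9.09 ± 0.10 and its miR-424-3p pull-downs at 10.55 ± 0.23 (SD, n = 3 each).

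The genes whose levels over the 12 arrays were most like those of 3 Wnt members were also sought. For LRP5 they were SH3GL1, BICRA and CLPTM1 with a Pearson r of 0.993, 0.991 and 0.990. The nearest genes to DVL3 were CDKN2AIP (0.968), CKS1B (0.968) and DYNLRB1 (0.967), and those nearest to CTNNB1 were CRTAP (0.967), USP22 (0.961) and MCM4 (0.960). These are descriptions over 12 arrays of 4 groups among 9647 genes, and arrays of the same group are replicates, not separate conditions.

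The rest of the pathway was examined through 148 further genes in lists by role, of which 90 were represented by a probe, each gene by its brightest. With miR-424-3p 51 were higher and 4 lower, a larger share higher than the 30.3% of all genes and a smaller share lower than the 25.7%. With miR-199a-5p 38 were higher and 13 lower, where 29.9% of all genes were higher and 20.1% lower. The enrichment was larger with miR-424-3p for 26 and with miR-199a-5p for 12, where the shares of all genes were 18.1% and 20.9%. The lists were chosen with earlier results of these data known and were not tested as sets. They hold genes that act for the pathway as well as genes that act against it.

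Among Wnt ligands and the secretion machinery 3 of 21 genes were represented, and all 3 were higher with miR-424-3p, against 30.3% of all genes. WLS, which carries Wnt proteins to the cell surface, rose by 1.06 ± 0.08, WNT5A by 0.73 ± 0.15 and WNT5B by 0.26 ± 0.09, where WNT5B lost its call without pull-down replicate 1 or 3 or input replicate 2 (0.22 to 0.25). With miR-199a-5p the main WLS probe rose by 0.24 ± 0.08, but 2 other WLS probes fell, by 0.68 and 0.61, so the direction for WLS in that pull-down depended on the probe. The rise of the main probe was also lost without replicate 2 of the pull-down (0.23, adjusted p = 0.0627) or of the input (0.20, adjusted p = 0.0934), with median scaling (0.21, adjusted p = 0.0534), with cyclic loess (0.18, adjusted p = 0.0721) and with dim probes left out (adjusted p = 0.0561). Of 12 receptors (13 listed), the miR-199a-5p pull-down was higher for 8, against 29.9% of all genes, and that of miR-424-3p for 5, against 30.3%. No receptor was lower in either by its brightest probe, where 20.1% and 25.7% of all genes were. RYK counts as higher with miR-199a-5p by that probe (0.51), but its 2 other probes were lower with miR-199a-5p (-0.70 and -0.80) and with miR-424-3p (-0.54 on both). The Frizzled receptor gene FZD9 rose by 1.38 ± 0.12 with miR-424-3p and by 0.46 ± 0.12 with miR-199a-5p, a called difference, while FZD3 rose with miR-199a-5p (0.87 ± 0.13) and was not called with miR-424-3p (0.20 ± 0.13), also a called difference. FZD4 rose with both, by 0.74 ± 0.11 with miR-199a-5p against 0.35 ± 0.11 with miR-424-3p, and its difference was not called (adjusted p = 0.0702). Its miR-424-3p rise was lost without pull-down replicate 3 (0.28) or input replicate 1 (0.25), and its difference was called without the latter (0.49). Secreted and membrane regulators were represented by 7 genes, to be set beside the same shares of all genes. The miR-199a-5p pull-down had less of 3, including the Wnt-binding SFRP1 (-0.35 ± 0.12) and the R-spondin receptor LGR4 (-0.34 ± 0.09), and TMEM198, a membrane protein, was higher (0.59 ± 0.13). The LGR4 probe was among the dimmest, with 3.54% of probes dimmer, and whether it lay above background was not examined. For SFRP1 the call was lost without pull-down replicate 1 or input replicate 3 (-0.28 in both). With miR-424-3p 1 of the 7 was higher, ZNRF3, a ubiquitin ligase that removes Frizzled receptors from the membrane (0.27 ± 0.10, adjusted p = 0.0383). ZNRF3 was also the third gene lower with miR-199a-5p (-0.31 ± 0.10, adjusted p = 0.0181), with a called difference of -0.58 ± 0.14. Its rise was lost without any of the 3 miR-424-3p pull-down arrays, input replicate 1 or 2 of miR-424-3p or input replicate 2 of miR-199a-5p (0.19 to 0.28). Its fall was lost without miR-199a-5p pull-down replicate 1 or input replicate 1 or 2 (-0.30 to -0.27).

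The destruction complex and its regulators, apart from the members above, were represented by 24 genes. With miR-199a-5p 9 were higher and 5 lower, against 29.9% and 20.1% of all genes. With miR-424-3p 13 were higher and 1 lower, against 30.3% and 25.7%. GSK3B, a kinase that phosphorylates beta-catenin, rose by 0.93 ± 0.11 with miR-199a-5p and by 0.56 ± 0.11 with miR-424-3p, with no called difference (adjusted p = 0.0688) unless miR-199a-5p input replicate 1 was left out (0.46, adjusted p = 0.0307). GSK3B thus rose in both pull-downs, whereas the direction of the CTNNB1 probes depended on the microRNA. GSK3B and CTNNB1 were not tested against each other. FBXW11, a receptor of the ubiquitin ligase that recognises phosphorylated beta-catenin, rose by 1.45 ± 0.10 with miR-199a-5p and stood at -0.05 ± 0.10 with miR-424-3p, where a second probe fell by 0.51. NKD2, which binds Dishevelled and dampens signalling, rose by 1.01 ± 0.10 with miR-424-3p and stood at 0.06 ± 0.10 with miR-199a-5p. The difference between the enrichments was called for FBXW11 in favour of miR-199a-5p and for NKD2 in favour of miR-424-3p.

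Among 18 nuclear factors the miR-424-3p pull-down was higher for 12 and lower for 1, against 30.3% and 25.7% of all genes. That of miR-199a-5p was higher for 6 and lower for 3, against 29.9% and 20.1%. The difference was called in favour of miR-424-3p for 10 of the 18, where 18.1% of all genes were. EP300, an acetyltransferase that serves beta-catenin as a coactivator, rose by 1.92 ± 0.10 with miR-424-3p and by 0.53 ± 0.10 with miR-199a-5p. The kinase HIPK2 rose by 1.80 ± 0.13 and by 1.52 ± 0.13, although a second HIPK2 probe was not called with miR-199a-5p (0.04). TLE5, a short relative of the Groucho co-repressors, rose by 1.53 ± 0.12 with miR-424-3p and fell by 0.50 ± 0.12 with miR-199a-5p, and a second probe did the same. That is the pattern of DVL3 and CTNNB1. Among 8 target genes of the pathway the counts were 6 higher and 1 lower for miR-424-3p, and 3 higher and 1 lower for miR-199a-5p. They stand beside the same shares of all genes. MYC rose by 1.66 ± 0.13 with miR-424-3p and fell by 0.58 ± 0.13 with miR-199a-5p, although its second probe was not called there (-0.17). JUN rose with both, by 1.65 ± 0.14 and 0.69 ± 0.14, and ID2 fell by 1.07 ± 0.20 with miR-424-3p. With miR-199a-5p the brightest ID2 probe was not called (-0.24), but a second was lower (-0.73), as it was with miR-424-3p (-1.45).

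The planar polarity and calcium branches, which use Dishevelled without beta-catenin, were represented by 18 genes. With miR-424-3p 11 were higher and 1 lower, against 30.3% and 25.7% of all genes. With miR-199a-5p 9 were higher and 1 lower, against 29.9% and 20.1%. PRICKLE1, a planar polarity component, rose with miR-199a-5p (1.00 ± 0.10) and miR-424-3p (0.96 ± 0.10), and the difference was not called. The small GTPase RAC1 rose by 1.22 ± 0.12 with miR-424-3p and stood at 0.17 ± 0.12 with miR-199a-5p. MAPK9, a JNK kinase, fell by 0.84 ± 0.11 with miR-199a-5p and rose by 0.35 ± 0.11 with miR-424-3p, a call that was lost without pull-down replicate 2 (0.24) or input replicate 2 or 3 (0.34 in both). A second MAPK9 probe was not called with miR-199a-5p (-0.36) and was higher with miR-424-3p (0.53). SCRIB, a polarity scaffold, was higher in both pull-downs by its brightest probe (0.54 and 0.50) and lower in both by its second (-0.45 and -0.35). The enrichments of the 18 genes differed in favour of miR-199a-5p for 4 and of miR-424-3p for 2, where the shares of all genes were 20.9% and 18.1%.

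**Figure D4:**
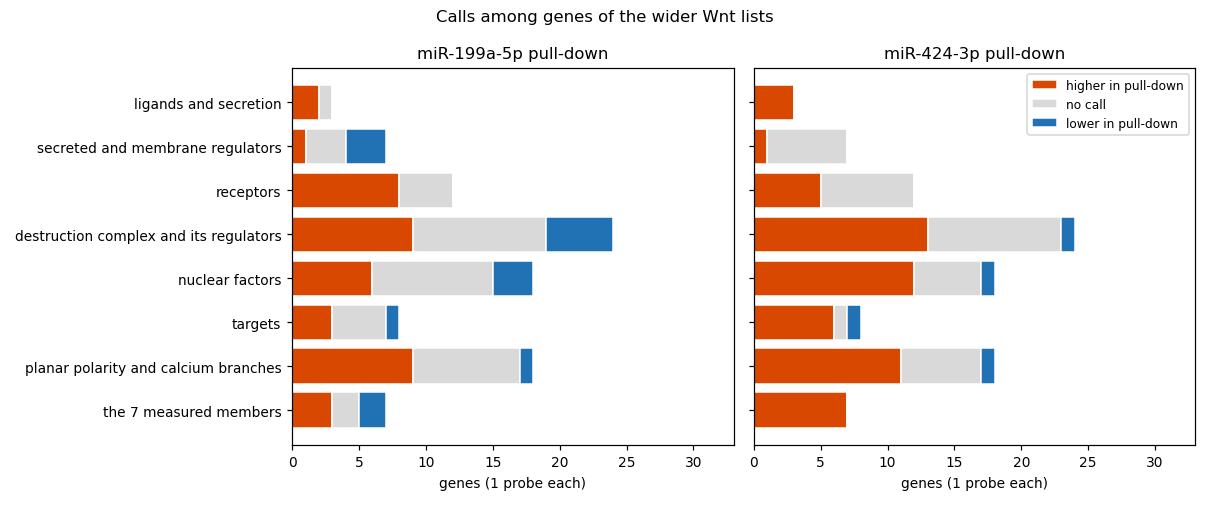
Number of genes (horizontal axis, 1 probe per gene) called higher, called lower or not called in each pull-down, (limma, adjusted p below 0.05) for 7 lists of further Wnt genes and, in the bottom row, the 7 measured core genes. All 7 core genes were higher with miR-424-3p, and 3 were higher and 2 lower with miR-199a-5p.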

How the data were processed

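RNA from 12 samples was hybridised to Illumina HT-12 BeadChips. The authors deposited normalized log2 values, which per the study's methods were made with lumi (version 2.2.1 in the submitters' processing notes) by background adjustment, variance stabilization and robust spline normalization. The filter that left 15329 probes is not given in the sources. A table of signals before normalization was not used, as its 24 columns of per-sample values carry names that match no sample label, so the planned background correction from raw signals was not run. The labels name miR-199a-5p and were followed, although miR-199b-5p appears in a legend of the study. The RefSeq hairpin of miR-199b holds the same seed bases.

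Groups came from sample titles. The labels number the replicates, and p-values measure the spread between these arrays. The annotation gave 12432 probes 1 symbol, 2 several and 2895 none, and 12430 were found by gene ID in RefSeq (GRCh38.p14), with 0 symbols changed. A linear model of the 4 groups was fitted to all probes with lmFit and eBayes of limma (version 3.58.1, R 4.3.3), with 8 residual degrees of freedom before moderation. Tests were one-sided for the pull-downs and their difference, each direction separately, and two-sided for the inputs. Each had Benjamini-Hochberg adjustment over all 15329 probes and a threshold of 0.05. The study's array methods use one-sided tests for enrichment over mock-transfected controls. They describe no array comparison with input, no test for lower signal and no test of a difference between enrichments. The fit was first tested on simulated data in which 200 of 15329 probes were changed, far fewer than were called in the real pull-downs. It recovered 35 of 67 changes of log2 size 0.5, 62 of 67 of size 1 and 66 of 66 of size 2. Of its 173 calls 10 were false. Many changes of 0.5 or less can therefore go uncalled. Values after ± are SE unless given as SD, and the number of arrays limits the precision.

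All probes of the members were named. Of each further list the up to 3 genes with the largest called change in either pull-down were named, and ZNRF3 (the only gene of its list called higher with miR-424-3p), RYK and SCRIB (probes called in opposite directions) were added after their values were seen. LRP5, DVL3 and CTNNB1 were each compared with all other represented genes over the 12 arrays. The members and lists were chosen with earlier results of these data known. Alternatives were median scaling, cyclic loess, a filter on dim probes, array weights, a replicate block, fits of the compared groups alone, two-sided tests, a minimum fold change and leaving out each array.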

Additional observations from a re-analysis of the deposited data

Results flagged for a closer look

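The following enrichments differed between the microRNAs in the test of the difference itself, as the log2 fold change with miR-199a-5p minus that with miR-424-3p. Among the core genes they were DVL3 (-1.61), TCF7L2 (-1.25), CTNNB1 on both probes (-0.93 and -0.89), LRP5 on both probes (-0.83 and -0.33) and AXIN2 (-0.59), all larger with miR-424-3p. Among the further genes named, the difference also favoured miR-424-3p for MYC (-2.24), TLE5 (-2.04), EP300 (-1.39), MAPK9 (-1.19), RAC1 (-1.06), JUN (-0.95), NKD2 (-0.95), FZD9 (-0.93), WLS (-0.82), SFRP1 (-0.59) and ZNRF3 (-0.58). For SFRP1 no rise was called with miR-424-3p (0.24 ± 0.12) unless pull-down replicate 1 was left out (0.34, adjusted p = 0.0325), and a fall was called with miR-199a-5p (-0.35). It favoured miR-199a-5p for FBXW11 (1.5), ID2 (0.84), TMEM198 (0.72) and FZD3 (0.67). For ID2 no rise was called in either pull-down, so its difference is that of a larger fall with miR-424-3p. A second ID2 probe was called lower in both pull-downs, with a called difference of 0.73. The difference on the brightest ID2 probe lost its call without any of 7 arrays (0.66 to 0.83). These were replicates 1 and 2 of the miR-199a-5p pull-down and input, replicates 1 and 3 of the miR-424-3p pull-down, and replicate 1 of its input.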

How the results depend on the processing

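Counts of called Wnt probes kept within 1.5 times their value under all alternatives run, with these exceptions. Among probes with a mean of at least 9, where both CTNNB1 probes and the second LRP5 probe drop out, 1 was lower with miR-199a-5p and 4 had a larger enrichment with miR-424-3p. Under a minimum fold change of 1.5, miR-424-3p had 5 higher probes and miR-199a-5p had 0. Leaving out 1 array at a time gave 7 to 9 probes higher with miR-424-3p. Cyclic loess moved the AXIN1 difference to -0.45 (adjusted p = 0.0445) and ended the call for the second LRP5 probe (-0.31, adjusted p = 0.0546). With array weights TCF7L2 was called lower with miR-199a-5p (-0.38, adjusted p = 0.0242) and AXIN1 higher (0.22, adjusted p = 0.0468). No called value of the core genes, of the further genes named by the rule or of ZNRF3 changed sign in the alternatives run. RYK and SCRIB were not put through them. Fitting only the groups compared ended the miR-424-3p call of ZNRF3 (0.27, adjusted p = 0.0582), as array weights did (0.21, adjusted p = 0.0793). With the replicate number as a block (replicate block), 7 probes still had a larger enrichment with miR-424-3p, but AXIN1 (-0.39, adjusted p = 0.0486) was among them, the FZD4 difference was called too (0.39, adjusted p = 0.0245), and the second LRP5 probe (adjusted p = 0.0505) was not among the 7. Of 12 same-numbered pairs of arrays 5 deviated together at r above 0.1 (range -0.10 to 0.51). Over all probes the block moved the number higher from 3920 to 4082 with miR-199a-5p and from 4029 to 4218 with miR-424-3p. The number lower moved from 3963 to 4102 and from 4414 to 4576. Differently numbered pairs were not compared, so whether the numbers pair the arrays was not settled. The main fit left the arrays unpaired.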
